A study of Mus musculus with 24 samples.

Results

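The cortex of C57 mice that received no disease-inducing agent was compared with that of 3 other inbred strains, SV129, FVB and C3H. The members were the 3 arrays of C57 mice given phosphate-buffered saline (PBS), set against the 9 PBS arrays of the other strains, out of 24 arrays in the series. All mice were males aged 18 days, and 1 array was run per mouse. From day 8 to day 18 each mouse received intraperitoneal PBS or CBE (conduritol B-epoxide, which blocks the lysosomal enzyme glucocerebrosidase and is used to model neuronopathic Gaucher disease) at 25 mg per kg per day, which gives 8 groups of 3. The C57 mice were of the substrain C57BL/6JOlaHsd; for SV129, FVB and C3H the sources used here give the strain name alone. The labels name no engineered allele in any group. The labels tie neither litter nor day of dissection to a mouse, so strain cannot be told apart from either. The p-values below measure the spread between the 3 mice of a group, not the spread among the other strains. The exception is the fit that takes the 9 others as 1 group.

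Inbred strains are homozygous at nearly every locus, so a strain carries fixed alleles that set the resting level of many transcripts. In brain, genes under interferon control are held low in the absence of infection, and microglia, the resident macrophages, supply most complement C1q and much of the lysosomal proteolytic capacity. The resting state of these systems matters for a lysosomal storage disease, in which undegraded lipid is followed by microglial activation. The PBS comparison asks which of these genes already differed in C57 cortex in the absence of CBE.

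Values are deposited log2 signals, so a difference of 1 is a doubling of signal. A difference is the C57 mean minus the equal-weight mean of the SV129, FVB and C3H means, over the 23521 probe sets that carry 1 gene symbol (22180 genes) among 41034. A probe set was called where the adjusted p of limma's moderated test (Benjamini-Hochberg over all 23521) was under 0.05. Beside the test, a probe set was counted as outside the range where all 3 C57 arrays lay above, or all below, all 9 other PBS arrays.

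By these rules 2003 probe sets (8.52%) were called, 1103 higher in C57 (4.69%) and 900 lower (3.83%). Both criteria were met by 1346 probe sets (5.72%), 754 above all 9 arrays (3.21%) and 592 below (2.52%). These stood for 735 distinct genes above and 545 below. Syne1 alone has 59 probe sets and supplied 43 of the 592, and 50 of the 900 lower calls. Outside the range, whatever the test gave, lay 1804 (7.67%), 920 above (3.91%) and 884 below (3.76%). A further 657 were called although C57 overlapped the other arrays, and 458 lay outside the range without a call. The differences were mostly small: the median size among the 1346 was 0.40, with a median standard error of 0.08 over all probe sets. C57 was higher by at least 1 log2 unit at 66 of them and lower by as much at 22, and 14 of the former reached at least 2. The values crossed the threshold without a step: just inside it lay Fbxo11, Gabra2 and Tdrp with differences of -0.20, -0.27 and -0.20, and just outside it Sox2, Ablim1 and Map1s with -0.31, 0.23 and 0.32. The balance of directions depended on scaling, since 55.1% of the calls were higher in C57 as deposited, 44.1% once each array was centred on its own median and 49.8% after quantile normalization. Leaving out 1 C57 mouse lowered the 2003 calls to 1021 without C57 PBS 1, 1037 without C57 PBS 2 and 1262 without C57 PBS 3. The 1346 became 896 without C57 PBS 1. With the 9 others as 1 group there were 1288 calls, and the ordinary linear model gave 727 higher in place of 1103.

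The first principal component of the 12 PBS arrays carried 26.7% of the variance and set the strain apart: the C57 arrays lay between 22.03 and 25.21 on it and the 9 others between -13.4 and -0.57. Against SV129 alone, 1480 probe sets were called (6.29%), 669 higher in C57 (2.84%) and 811 lower (3.45%), the latter 1243 once arrays were centred on their medians. Against FVB there were 1570 (6.67%), 1028 higher (4.37%) and 542 lower (2.30%), and against C3H 1416 (6.02%), 780 higher (3.32%) and 636 lower (2.70%). Single mice moved these counts: without C57 PBS 1 they were 880, 846 and 760, without C57 PBS 2 they were 852, 978 and 802, and without C57 PBS 3 the FVB count was 1034. The FVB count was 978 without FVB PBS 2 and 1042 without FVB PBS 3, and the C3H count was 807, 889 and 801 without C3H PBS 1, 2 and 3. The same contrast made for each other strain against its own 3 counterparts, on the same 12 arrays, called 720 probe sets for SV129 (3.06%), 707 for FVB (3.01%) and 499 for C3H (2.12%). Called probe sets outside the range numbered 408 (1.73%), 370 (1.57%) and 240 (1.02%) in those strains. These 4 contrasts share every array and were not tested against each other.

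The mean levels of cortical cell markers overlapped between C57 and the other strains. The 19 probe sets of excitatory neuron markers had a mean level of 7.88 to 7.99 on the C57 arrays and 7.78 to 8.03 on the others, and 1 of them (Fezf2) was called. Astrocyte markers lay at 9.06 to 9.12 against 8.86 to 9.17, with 2 higher and 1 lower call of 16. Interneuron markers lay at 7.29 to 7.37 against 7.24 to 7.52, with 2 higher and 3 lower calls of 21. Over all probe sets 4.69% were called higher and 3.83% lower. Choroid plexus markers had means of 3.77 to 4.05 in C57 and 3.79 to 3.95 elsewhere, near the lower end of the scale. Blood markers, as dim, lay at 3.7576 to 3.8384 in C57 and 3.6171 to 3.7575 elsewhere, so their means just failed to overlap. No member of these lists was called by limma. Without adjustment, 2 of 12 and 1 of 5 had a p under 0.05. Ttr, the most abundant transcript of the choroid plexus, read 7.63, 5.61 and 4.62 on C57 PBS 1, 2 and 3 and between 4.15 and 6.16 elsewhere. In such tissue arrays, fewer cells of a type and less RNA per cell cannot be told apart.

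The 15 largest higher and 15 largest lower genes among the 1346 formed a mixed set of enzymes, immune genes, zinc finger genes and gene copies. Predicted genes, clones and small RNAs were left out of this choice; they made up 120 of the 1346, among them Gm3893 with a difference of 5.04. The transcripts furthest above the other strains in the set were Fam205a2, a gene present in several near-identical copies, and Etnppl, which encodes an astrocytic lyase that breaks down phosphoethanolamine. The brightest Fam205a2 probe set read 8.26, 8.50 and 8.04 in the C57 mice. In the 9 others it read from 4.22 to 5.42 with a median of 4.36. The difference was 3.67 (SE 0.10, adjusted p = 7.01e-11, a 12.7-fold ratio of signal), and no array overlapped. The other 4 Fam205a2 probe sets, which are 2 pairs of identical values, gave 2.24 and 2.89, and in all of them FVB lay between C57 and the remaining strains (5.77 and 6.16 against 4.63 to 4.83). Signal cannot be divided among the copies of such a gene.

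Etnppl read 7.51, 7.32 and 6.26 in C57 and from 3.74 to 4.60, with a median of 3.87, in the other strains. The difference was 2.97 (SE 0.23, adjusted p = 4.00e-06, 7.84-fold). C57 PBS 3 stood below its 2 group mates and still lay above all 9 other arrays. The remaining 13 large differences ran from 2.05 down to 1.28. Some of these genes are normally prominent in other tissues: Krt12 is a corneal keratin (1.86, SE 0.11), Myo7a the myosin of inner-ear hair cells (1.45, SE 0.07) and Cox6a2 the muscle isoform of a cytochrome c oxidase subunit (1.32, SE 0.10). Cox6a2 read 6.34, 6.56 and 6.82 in C57 against 4.75 to 5.83, and the 3 other strains differed from each other too, with means of 5.25 in SV129, 4.78 in FVB and 5.75 in C3H. Tmem260, a glycosyltransferase of the secretory pathway, was among the most even: 6.75, 6.84 and 6.79 against 5.32 to 5.69. Mid1, an X-linked ubiquitin ligase gene at the pseudoautosomal boundary, differed by 1.55 (SE 0.11), and its other probe set by 0.68 with overlapping arrays. Ccl27a, a skin-homing chemokine, was higher by 1.53 (SE 0.19), and Nxpe4, of the neurexophilin and esterase domain family, by 1.40 (SE 0.11).

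**Figure D1:**
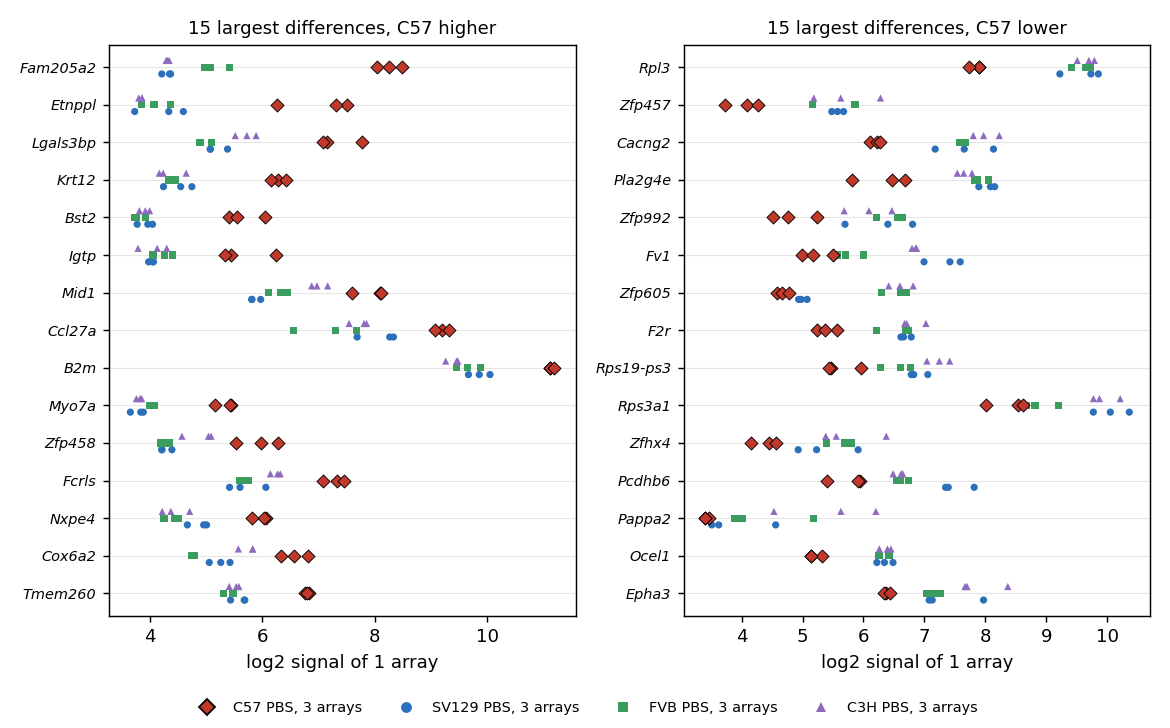
Log2 signal (x axis) of the 12 PBS arrays for the 15 genes furthest above (left) and the 15 furthest below (right) the other strains, with diamonds for C57 and circles, squares and triangles for SV129, FVB and C3H. Every C57 point lies outside the other 9, as the choice of genes requires, by a wide margin for Fam205a2 (8.04 to 8.50 against at most 5.42) and by a narrow one for Pappa2 (at most 3.46 against at least 3.51).

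Below the other strains, the largest difference was at a probe set of Rpl3, a protein of the large ribosomal subunit. It read 7.89, 7.89 and 7.74 in C57 and 9.22 to 9.85 elsewhere (difference -1.78, SE 0.12, adjusted p = 1.09e-06, a 3.43-fold lower signal). Of the other Rpl3 probe sets, 1 was called in the opposite direction (0.47, adjusted p = 0.00746, above all 9 arrays) and 1 was not called (0.02), so no direction can be given for the gene. Cacng2, which encodes the AMPA receptor auxiliary subunit stargazin, also had probe sets that disagreed: 1 read 6.11, 6.23 and 6.27 against 7.18 to 8.23 (-1.56, SE 0.15), and the other read 10.10, 10.14 and 10.22 against 9.77 to 10.37 (0.03, adjusted p = 0.919). Rps3a1 also split, with -1.25 at 1 probe set and -0.18 at the other. Partial calls were common. Among the 1346 were probe sets of 112 genes with several distinct ones, and in 98 of these genes another probe set was not called. A missed call is not a conflict in direction: Syne1, with 50 of 59 called lower and 0 higher, counts here. So does Malat1, with differences of 0.54 and 0.62. All probe sets agreed in direction and call in 12 genes, and 6 had calls in both directions. Whether bases that differ between strains under single probes have a part in this was not tested.

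Genes with 1 probe set among the 15 lower ones included Pla2g4e, an acyltransferase that makes precursors of N-acylethanolamines. It read 6.68, 6.46 and 5.80 in C57 against 7.54 to 8.15 (-1.55, SE 0.14, adjusted p = 2.09e-05). F2r, the thrombin receptor, read 5.57, 5.24 and 5.37 against 6.22 to 7.02 (-1.28, SE 0.11). Ocel1, named for its occludin and elongation factor domain, was the most even, at 5.13, 5.32 and 5.14 against 6.22 to 6.48 (-1.14, SE 0.07). The guidance receptor Epha3 differed by -1.10 (SE 0.18) and the homeobox transcription factor Zfhx4 by -1.20 (SE 0.21).

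In several lower genes the other strains were far from uniform. Fv1, a gene of retroviral origin that restricts murine leukaemia virus and has known strain alleles, read 4.99, 5.16 and 5.50 in C57, with means of 7.33 in SV129, 6.84 in C3H and only 5.76 in FVB. Zfp605 was near C57 (4.58 to 4.78) in SV129 (mean 5.0) and higher in FVB (6.53) and C3H (6.61). Taking the 9 other arrays as 1 group, which counts strain spread as error, removed the call for Zfp605 (adjusted p = 0.0677). Pappa2, a protease of insulin-like growth factor binding proteins, was dim in all C57 mice (3.40 to 3.46), and its call was marginal (-1.15, SE 0.33, adjusted p = 0.0488). It was lost in 12 of 22 alternative settings. Zinc finger genes of the Zfp series were called in both directions, 24 higher and 22 lower of 399 probe sets, near the shares of 4.69% and 3.83% over all probe sets. Zfp457 and Zfp458, neighbours in the annotation, differed in opposite directions, by -1.61 (SE 0.20) and 1.44 (SE 0.14).

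Genes induced by interferon were called in 1 direction. Of 34 probe sets for 32 such genes, 14 were called higher and none lower, against 4.69% and 3.83% of all probe sets. Above all 9 other arrays lay 13, against 3.91% of all probe sets. The median difference of the list was 0.21, against -0.02 for all probe sets. The mean level of the list was 4.87 to 5.06 on the C57 arrays and 4.42 to 4.64 on the others, so the groups did not overlap. The count stayed between 11 and 15 when any 1 PBS array was left out.

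Type I interferon acts through the transcription factor complex ISGF3, of which Irf9 is the DNA-binding part, and ISGF3 binds the interferon-stimulated response element. Its core, GAAA repeated after any 2 bases, was sought on both strands in the 250 bases before the gene start. The stretch around it is printed for 4 genes picked by hand among the higher ones, to show what the motif looks like. Of the others picked, Lgals3bp and Oasl2 held no match in this window, and Usp18 and Rtp4 had no promoter to read. Sequences are from RefSeq, build GRCm38.p6, 5′ to 3′ on the gene's strand, with 20 bases on each side of the motif and the motif in capitals (TTTC repeated after any 2 bases is the same motif on the other strand). Bst2 holds overlapping copies, and Ifit1 holds 2 separate ones.
B2m, chr2:122147528-122147577, + strand: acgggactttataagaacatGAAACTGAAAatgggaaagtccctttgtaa
Bst2, chr8:71537567-71537622, - strand: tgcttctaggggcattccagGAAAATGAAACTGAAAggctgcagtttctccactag
Ifit1, chr19:34640765-34640833, + strand: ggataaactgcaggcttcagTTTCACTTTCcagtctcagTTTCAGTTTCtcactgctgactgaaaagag
Igtp, chr11:58199502-58199551, + strand: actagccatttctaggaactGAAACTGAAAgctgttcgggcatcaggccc
Among 13 genes called higher that had a promoter to read, members of the interferon lists plus B2m, 8 held the motif. B2m was added by hand and is among the 8. Among 16 list members that were not called, 7 held the motif, and no gene was added there. The share over all 27025 promoters of the same length was 3.46%. A match describes these letters only, and the reference is itself a C57BL/6J genome, so the other strains' promoters were not read.

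The largest interferon-gene difference was at Lgals3bp, a secreted scavenger-receptor protein. It read 7.15, 7.08 and 7.77 in C57, and the lowest, median and highest of the 9 other arrays were 4.88, 5.10 and 5.89. The difference was 2.05 (SE 0.13, adjusted p = 1.02e-06, 4.14-fold), and a second probe set gave 0.36 (adjusted p = 0.0129). Bst2, or tetherin, which holds budding virus at the cell surface, read 5.41, 5.56 and 6.05 against 3.73 to 4.05 (1.79, SE 0.11, adjusted p = 7.75e-07, 3.45-fold). The other strains were close to each other there, with means of 3.93, 3.81 and 3.91 in SV129, FVB and C3H. Oasl2, of the oligoadenylate synthetase family, read 5.17, 5.16 and 5.62 against 3.84 to 4.44 (1.22, SE 0.12). Ifit1, which sequesters uncapped viral RNA, read 5.44, 5.31 and 5.97 against 4.05 to 5.28 (1.03, SE 0.14). C3H was the nearest strain for Ifit1, at a mean of 4.94. Ifitm3, which blocks viral entry from endosomes, differed by 1.02 (SE 0.13).

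Regulators of the response were among the called members. Irf9 read 5.15, 5.30 and 5.68 against 4.19 to 4.85 (0.83, SE 0.14, adjusted p = 0.00329). Irf7, the factor that amplifies type I interferon, read 4.4, 4.58 and 4.56 against 3.87 to 4.28 (0.44, SE 0.09, adjusted p = 0.00594). Usp18, which removes Isg15 from proteins and dampens the receptor, differed by 0.75 (SE 0.08), and Isg15 itself by 0.47 (SE 0.11). Not every member was higher: the adjusted p was 0.730 for Ifit3 (-0.09), 0.974 for Mx1 (-0.01) and 0.502 for Stat2 (-0.11). C57 PBS 3 was the highest C57 array for Lgals3bp, Bst2, Oasl2, Ifit1 and Irf9, and 12 of 34 members were still called without it.

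Of 13 probe sets for interferon-induced GTPases, which attack the vacuoles of intracellular pathogens, 4 were called higher and none lower. The shares over all probe sets were 4.69% and 3.83%. Igtp read 5.45, 5.35 and 6.25 against 3.80 to 4.41 (1.56, SE 0.16, adjusted p = 5.51e-05, 2.96-fold). Irgm2 differed by 0.52, Iigp1 by 0.51 and Gbp3 by 0.46, with overlapping arrays. The count was 2 without C57 PBS 1, without C57 PBS 3, without C3H PBS 1 or without C3H PBS 2. It was also 2 with all 24 arrays in 1 fit, with adjustment over all probe sets of the table and with the ordinary linear model.

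Antigen presentation differed at few genes. B2m, the light chain of all MHC class I molecules, was bright in every mouse: 11.12, 11.12 and 11.20 in C57 against 9.26, 9.65 and 10.05 as the lowest, median and highest of the others. The difference was 1.5 (SE 0.09, adjusted p = 7.79e-07, 2.83-fold), and C57 exceeded SV129 by 1.28, FVB by 1.48 and C3H by 1.74. Of the 23 class I and peptide loading probe sets, B2m and the non-classical heavy chain H2-M3 (0.54, SE 0.14) were called. The peptide transporter subunit Tap1 (0.04, adjusted p = 0.815) and the immunoproteasome subunit Psmb8 (0.04, adjusted p = 0.791) were not. Of 13 class II pathway probe sets, 1 was called, that of the protease Ctss. Beside both lists, 4.69% of all probe sets were called higher and 3.83% lower.

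**Figure D2:**
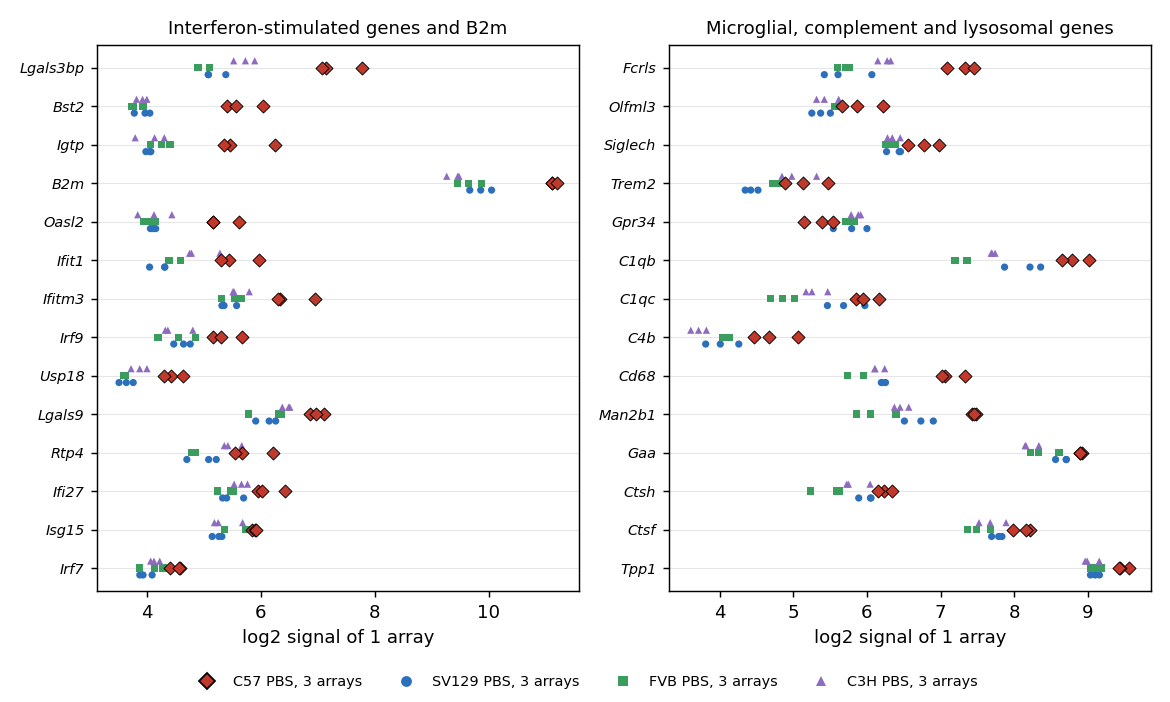
Log2 signal (x axis) of the 12 PBS arrays for chosen genes, all of them called: interferon-induced genes with B2m (left) and microglial, complement and lysosomal genes (right). Diamonds are C57, and circles, squares and triangles are SV129, FVB and C3H. Members not called, such as Ifit3, Mx1, Stat2, P2ry12, Tmem119 and Cx3cr1, are not drawn, nor are the lower lysosomal genes Scarb2 and Ctsl. B2m at 11.12 to 11.20 and Bst2 at 5.41 to 6.05 stand clear of the other strains, whereas Trem2 and C1qc overlap them and Gpr34 lies below.

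Microglial genes did not differ as a block. Of 15 homeostatic marker probe sets, 4 were called higher and 1 lower, beside 4.69% and 3.83% of all probe sets. The mean level of the list overlapped, at 6.07 to 6.28 in C57 and 5.72 to 6.16 in the others. The defining markers P2ry12 (-0.09, SE 0.09), Tmem119 (-0.03, SE 0.08) and Cx3cr1 (-0.01, SE 0.10) were not called, and their C57 values lay within the other arrays' range. Fcrls, a microglial scavenger receptor, read 7.32, 7.08 and 7.46 against 5.42 to 6.32 (1.41, SE 0.12, adjusted p = 8.32e-06, 2.66-fold). Siglech, a sialic acid-binding lectin, and Olfml3, a secreted glycoprotein, were higher by 0.41 (SE 0.08) and 0.45 (SE 0.10). Trem2, the lipid-sensing receptor, was called at 0.41 (SE 0.11, adjusted p = 0.0418) with overlapping arrays. Gpr34, a lysophosphatidylserine receptor, was lower: 5.4, 5.14 and 5.54 against 5.54 to 6.00 (-0.44, SE 0.10). Without C57 PBS 2 or C57 PBS 3 there were 2 higher calls, and without C57 PBS 2 there was no lower one. All 24 arrays in 1 fit also gave 2 higher calls, and the ordinary linear model 2 higher and no lower.

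Complement genes were higher where they were called, at 4 of 17 probe sets, beside 4.69% of all probe sets. C1qb, a chain of the initiating C1q complex, read 8.79, 8.65 and 9.01 against 7.19, 7.70 and 8.36 (1.10, SE 0.10, adjusted p = 1.86e-05, 2.14-fold). The excess depended on the strain compared, at 0.67 over SV129, 1.51 over FVB and 1.11 over C3H. Its partner C1qc was higher by 0.70 (SE 0.11) with overlapping arrays. C4b, the fourth component, read 4.67, 5.07 and 4.46 against 3.61 to 4.26 (0.79, SE 0.11), and the anaphylatoxin receptor C3ar1 differed by 0.41 (SE 0.09). The count was 2 with all 24 arrays in 1 fit or with the 9 others as 1 group. Cd68, the macrophage lysosomal glycoprotein, read 7.06, 7.02 and 7.33 against 5.74 to 6.25 (1.08, SE 0.08, adjusted p = 2.44e-06). Of the 24 disease-associated microglia probe sets that include it, 3 were called higher and 1 lower (4.69% and 3.83% over all probe sets). The lower one was lipoprotein lipase (Lpl, -0.48, SE 0.10).

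In the lysosome list calls were mostly higher, with 11 of 35 probe sets called higher, 2 lower and 10 above all 9 other arrays. The same shares over all probe sets were 4.69%, 3.83% and 3.91%. Its mean level was 7.68 to 7.73 in C57 and 7.51 to 7.59 elsewhere, without overlap, and its median difference was 0.14. Man2b1, the lysosomal alpha-mannosidase that is lost in alpha-mannosidosis, read 7.43, 7.48 and 7.45 against 5.86, 6.45 and 6.90 (1.03, SE 0.10, adjusted p = 4.95e-05, 2.04-fold). The other higher members differed by at most 0.48: Gaa, the acid alpha-glucosidase, at 8.91, 8.89 and 8.89 against 8.15 to 8.71 (0.48, SE 0.08); the cathepsins Ctsh (0.47), Ctsf (0.46), Ctsb (0.43) and Ctss (0.42); and the peptidase Tpp1 (0.40, SE 0.06). The lower members were cathepsin L (Ctsl, -0.26, SE 0.07) and Scarb2, the receptor that carries glucocerebrosidase to the lysosome, at 9.46, 9.47 and 9.39 against 9.66 to 10.002 (-0.34, SE 0.07, adjusted p = 0.00826). The count of 11 was 6 without C57 PBS 3, and the 2 lower calls were 1 without any single C57 mouse, without C3H PBS 1, with all 24 arrays in 1 fit, with the 9 others as 1 group and with adjustment over all probe sets deposited.

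Genes of glycosphingolipid metabolism, the pathway that CBE enters, were mostly alike. Of 30 probe sets, 2 were called, both higher, near the share of 4.69% called higher over all probe sets. Psap, the precursor of the saposins that help lipid hydrolases, read 11.94, 11.93 and 11.89 against 11.58 to 11.80 (0.22, SE 0.06, adjusted p = 0.0335). B4galnt1, which makes complex gangliosides, read 8.56, 8.56 and 8.51 against 7.96 to 8.35 (0.34, SE 0.07). Ugcg, the synthase of glucosylceramide, lay below all 9 arrays (8.94, 8.85 and 8.87 against 9.0 to 9.45) without passing the test (-0.22, SE 0.08, adjusted p = 0.131). Gba2, the non-lysosomal glucosylceramidase, was not called (0.11, adjusted p = 0.384). Some genes of the pathway were not analysed here.

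Immediate-early genes are those that neurons induce within minutes of firing. Of 25 probe sets 7 were called, all higher, and 2 lay above the 9 other arrays (4.69% and 3.91% over all probe sets). Npas4, an activity-dependent transcription factor, read 7.56, 7.48 and 6.19 against 4.79 to 6.66 (1.46, SE 0.37, adjusted p = 0.0278). Arc, a synaptic capsid-like protein, read 10.88, 10.96 and 9.78 against 8.23 to 10.15 (1.14, SE 0.32), and Nr4a1, a nuclear receptor, differed by 1.29 (SE 0.31). C57 PBS 3 was the low array in each of these. The list's mean was 7.79, 7.80 and 7.26 on C57 PBS 1, 2 and 3, against 6.80 to 7.57 elsewhere. Leaving out C57 PBS 1 or C57 PBS 2 left 1 call, and leaving out C57 PBS 3 gave 10. There was 1 call with the ordinary linear model and there were 3 with adjustment over all probe sets deposited. Per1, a circadian clock repressor that activity also induces, was more even, at 9.70, 9.66 and 9.54 against 8.50 to 9.23 (0.86, SE 0.11).

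Neuronal genes were called in both directions. The shares to set beside their counts, over all probe sets, were 4.69% higher and 3.83% lower. Of 26 presynaptic probe sets 4 were higher and 2 lower: the calcium sensor Syt1 read 12.68, 12.70 and 12.61 against 12.15 to 12.55 (0.30, SE 0.05), whereas the active zone scaffold Pclo read 9.95, 9.91 and 9.97 against 10.30 to 10.49 (-0.45, SE 0.06) and its relative Bsn differed by -0.27 (SE 0.07). Potassium channel probe sets gave 3 higher and 5 lower of 34. Kcnj10, the astrocytic channel that clears potassium, read 8.77, 8.94 and 9.0 against 9.21 to 10.04 (-0.67, SE 0.09), and Kcnip3, a calcium-binding channel subunit, was higher by 0.65 (SE 0.08). The GABA-A receptor subunits Gabrg1 (-0.38, SE 0.08) and Gabra2 (-0.27, SE 0.08, adjusted p = 0.0494) were lower, and the other 14 of 16 GABA receptor probe sets were not called. The AMPA receptor subunit Gria1 was higher by 0.32 (SE 0.06) and the NMDA receptor subunit Grin3a differed by -0.47 (SE 0.11). Reln, the layer-forming glycoprotein of Cajal-Retzius cells and interneurons, was lower, at 7.87, 7.94 and 8.02 against 8.15 to 9.16 (-0.62, SE 0.10), most so against SV129 (mean 9.0).

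The clustered protocadherins, cell-surface labels with which neurons tell themselves from their neighbours, gave 6 lower and 2 higher calls among 23 probe sets. Of all probe sets, 3.83% were called lower and 4.69% higher. Pcdhb6 read 5.39, 5.94 and 5.91 against 6.49 to 7.82 (-1.16, SE 0.12, adjusted p = 5.91e-05). Pcdhb2 and Pcdhb3 differed by -1.09 (SE 0.19) and -1.02 (SE 0.15), with C3H near C57 for both (means 5.72 and 6.33) and SV129 and FVB higher. Pcdhb12 was higher by 0.46 (SE 0.10). Members of this family are alike in sequence, so a probe set may read more than 1 of them. The 6 lower calls became 3 without C57 PBS 2, and the 2 higher ones 0 without C57 PBS 1, 1 without C57 PBS 3 and 4 without SV129 PBS 2. With the 9 other arrays as 1 group there were 1 lower and 1 higher call, and with the ordinary linear model 3 and 1.

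Genes with documented strain alleles were also read. No direction was set for the list in advance, so it cannot check the strain labels. Of 33 such probe sets 4 were higher and 3 lower, beside 4.69% and 3.83% of all probe sets. Glo1, a methylglyoxal-detoxifying enzyme that is duplicated in some strains, read 8.75, 8.57 and 8.89 in C57, with means of 8.65 in FVB, 9.79 in SV129 and 9.68 in C3H. Alad, a haem synthesis enzyme that also varies in copy number, read 6.53, 6.66 and 6.49 against 6.96 to 7.73 (-0.74, SE 0.08). Pttg1, or securin, read 4.91, 4.73 and 4.85 against 3.75 to 4.06 (0.94, SE 0.06). Mmrn1, which encodes a platelet protein and is known to be missing from this substrain, read 3.46, 3.52 and 3.59 against 3.44 to 3.76, so a probe set this dim everywhere checks nothing. Herc6, a ubiquitin ligase gene that interferon induces, was near C57 (7.49 to 7.72) in C3H (7.55) and low in SV129 (5.27). Nnt, the mitochondrial transhydrogenase, was not called (0.18, adjusted p = 0.173).

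Metabolic and stress genes added single large members. Aldh1a1, a retinaldehyde dehydrogenase, read 9.59, 9.48 and 9.65 against 7.33 to 9.37 (0.95, SE 0.10), with FVB the low strain (7.61). Aldh2, the mitochondrial aldehyde dehydrogenase, read 9.24, 9.08 and 9.07 against 8.51 to 8.68 (0.53, SE 0.06). Gsr, glutathione reductase, was low in C57 (7.23 to 7.48) and FVB (7.37) and higher in SV129 (8.27) and C3H (8.11). In the cholesterol pathway the brake Insig1 was higher by 0.54 (SE 0.06), and Hmgcs1, an early synthetic enzyme, lower (difference -0.27, SE 0.07). Vps13c, a lipid transfer protein linked to Parkinson disease, read 7.97, 8.00 and 8.16 against 8.50 to 8.78 (-0.61, SE 0.06). The synucleins Sncb (0.16, adjusted p = 0.339) and Sncg (-0.12, adjusted p = 0.315) were not called, nor was the astrocyte filament gene Gfap (0.39, SE 0.22, adjusted p = 0.356). No probe set of the lists for cell cycle, oligodendrocyte precursors or myelin was called by limma, and 2 of 23, 0 of 10 and 4 of 14 had an unadjusted p under 0.05. The myelin list had a median difference of 0.33, with means of 8.28 to 9.04 in C57 and 7.505 to 9.23 over the 9 other arrays.

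**Figure D3:**
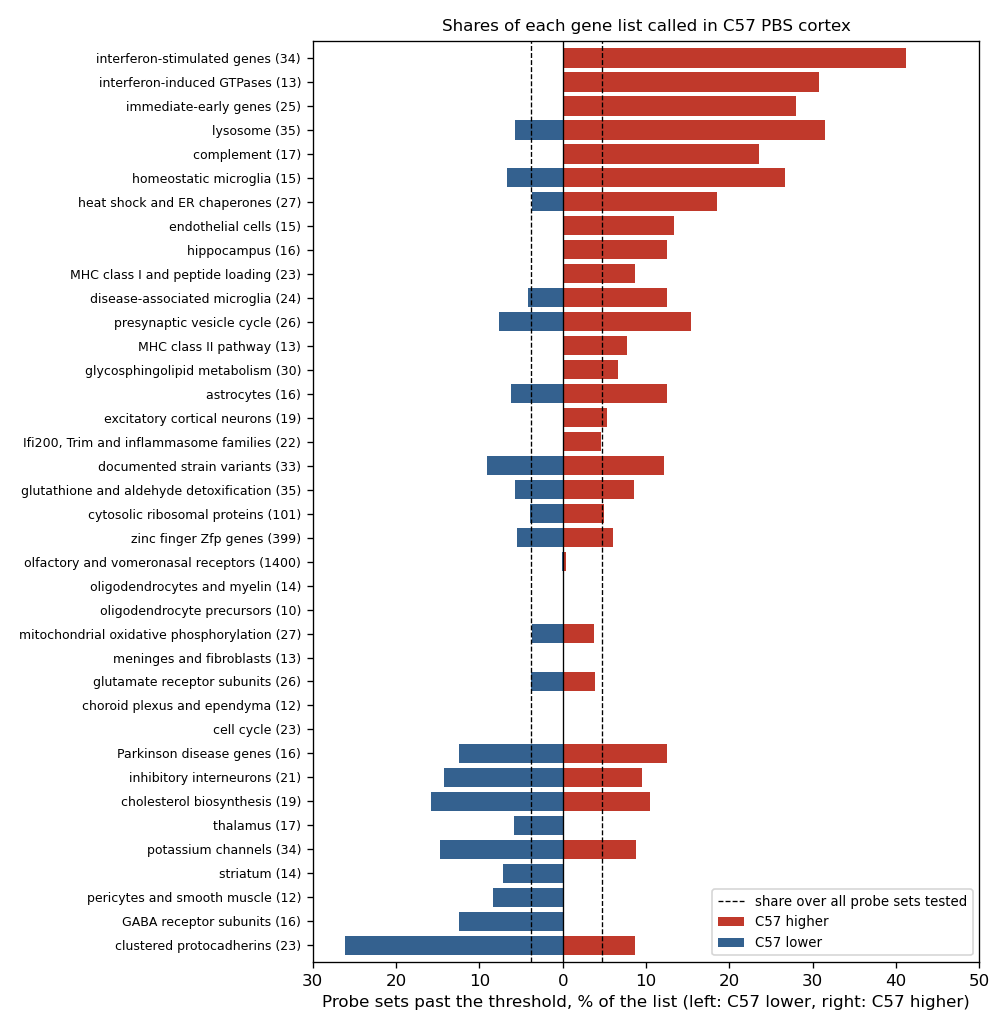
Share of each gene list's probe sets (number in brackets) called higher in C57 (right, red) or lower (left, blue), as % of the list, with dashed lines at the shares over all probe sets, 4.69% and 3.83%. Interferon-stimulated genes reach 14 of 34 on the right with none on the left, and clustered protocadherins 6 of 23 on the left.

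MicroRNA probe sets of the imprinted region between Meg3 and Mir410 on chromosome 12 formed a compact group, chosen after its values were seen. This region is expressed from the maternal chromosome in brain and gives rise to a long series of microRNAs that bind messenger RNAs through their seed. Of 47 probe sets for 43 microRNA genes, 20 were called higher in C57 and none lower, 18 lay above all 9 other arrays and 43 differences were positive. The median was 0.30. The 459 microRNA probe sets from elsewhere gave 14 higher and 2 lower calls and a median of 0.01. Among them 7 lay above all 9 other arrays and 243 differences were positive. Beside these counts stand the shares over all probe sets, 4.69% called higher, 3.83% called lower and 3.91% above. For the 6 members of largest difference, the mature forms in RefSeq (GRCm38.p6, all on the + strand) are printed with the seed, bases 2 to 8, in capitals, since the seed decides the targets.
mmu-miR-453, chr12:109735669-109735692: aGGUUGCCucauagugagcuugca
mmu-miR-667-3p, chr12:109720061-109720083: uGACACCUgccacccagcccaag
mmu-miR-667-5p, chr12:109720020-109720044: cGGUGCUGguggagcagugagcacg
mmu-miR-300-3p, chr12:109724363-109724384: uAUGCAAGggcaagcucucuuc
mmu-miR-300-5p, chr12:109724318-109724339: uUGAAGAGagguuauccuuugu
mmu-miR-329-3p, chr12:109713541-109713562: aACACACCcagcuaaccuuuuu
mmu-miR-329-5p, chr12:109713503-109713524: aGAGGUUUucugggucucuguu
mmu-miR-341-3p, chr12:109611556-109611576: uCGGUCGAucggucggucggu
mmu-miR-341-5p, chr12:109611521-109611541: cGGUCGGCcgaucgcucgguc
mmu-miR-654-3p, chr12:109723270-109723291: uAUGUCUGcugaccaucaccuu
mmu-miR-654-5p, chr12:109723235-109723256: uGGUAAGCugcagaacaugugu
mmu-miR-496a-5p, chr12:109739132-109739152: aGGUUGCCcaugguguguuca
The last is shown because it shares its seed with miR-453. No other seed was shared among the 33 mature sequences of the 18 members above all 9 arrays.

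Mir453 read 7.60, 8.43 and 7.61 in C57 against 4.64 to 7.11, with a median of 6.14 (1.89, SE 0.40, adjusted p = 0.0105). Mir667 read 6.82, 7.51 and 6.63 against 4.42 to 5.78 (1.78, SE 0.24, adjusted p = 0.000491). Mir300 read 6.32, 6.53 and 5.71 against 4.11 to 5.02 (1.59, SE 0.13, adjusted p = 1.06e-05, 3.01-fold), and Mir329 read 7.02, 6.85 and 6.81 against 5.12 to 5.88 (1.36, SE 0.11, adjusted p = 5.93e-06). Mir341 and Mir654 were higher by 1.25 (SE 0.16) and 1.13 (SE 0.11). Mir376b was tighter, at 5.17, 5.49 and 5.23 against 3.96 to 4.44 (1.12, SE 0.08). C57 exceeded each of the 3 strains in all of these, for Mir329 by 1.36 over SV129, 1.23 over FVB and 1.49 over C3H.

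The group was not uniform. Mir494 (0.33, SE 0.24), Mir379 (0.12), Mir370 (0.04) and Mir673 (-0.22) lay among the members that were not called. Mir380 had a pair of probe sets, of which 1 was called (0.43, SE 0.10) and the other not (0.01). In PBS mice the host transcripts Rian (0.21, SE 0.07, adjusted p = 0.0894) and Meg3 (0.35, SE 0.11, adjusted p = 0.0730) did not pass the threshold. Nor did the paternally expressed flanking genes Dlk1 (-0.05) and Dio3 (-0.05). Their C57 means, 3.45 and 3.29, lay below the median of 4.18 over all probe sets, so signals this dim cannot show whether these genes differ. Rian was bright, with a C57 mean of 9.31, and Meg3 read only 4.62. In CBE mice limma called both hosts higher in C57, Rian by 0.325 (adjusted p = 0.0370) and Meg3 by 0.277 (adjusted p = 0.038). Dlk1 and Dio3 were again not called. Whether a probe set reads the mature form, the hairpin or the host transcript was not tested.

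**Figure D4:**
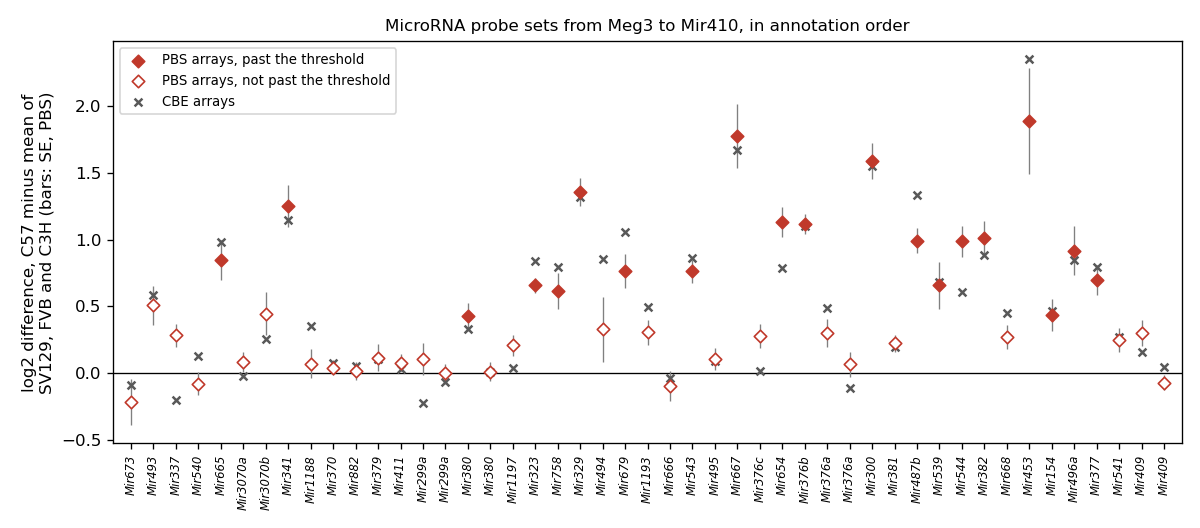
Log2 difference between C57 and the mean of the 3 other strains (y axis) for the 47 microRNA probe sets between Meg3 and Mir410 in annotation order, with diamonds for PBS arrays (filled where called, bars 1 SE) and crosses for CBE arrays. High and low members alternate along the region, Mir453 reaches 1.89 and 43 of 47 PBS differences are positive.

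Called genes had called neighbours somewhat more often than genes at large. In the gene order of RefSeq (GRCm38.p6), 16.95% of the 1239 placed genes that were called and outside the range had a neighbour of the same kind, against 11.52% of all 20600 placed genes. The longest run held Mir487b, Mir539, Mir544 and Mir382. Ccl27a (1.53) and Fam205a2 flanked the predicted gene Gm3893, which differed by 5.04. Of 8 runs of 3 genes, 4 were higher throughout, such as Pex26, Tuba8 and Usp18 (0.51, 0.68 and 0.75) and B4galt3, Ppox and Usp21 (0.76, 0.72 and 0.59). In 1 run, Ccl17, Ciapin1 and Coq9, all were lower (-0.76, -0.62 and -0.30). The other 3 runs held both directions, as at Shisa4, Ipo9 and Nav1 (0.60, 0.30 and -0.41).

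The mice given CBE share no array with the PBS mice and gave the strain difference again. C57 CBE against the other 3 CBE groups called 1786 probe sets (7.59%), 1093 higher (4.65%) and 693 lower (2.95%). Whatever the test gave, 805 lay above all 9 other CBE arrays (3.42%) and 735 below (3.12%). Of the 1346 probe sets, 1321 (98.1%) had the same sign in CBE mice, against 66.9% of all other probe sets. In CBE mice 724 (53.8%) were called in the same direction and none in the opposite one, and 607 lay outside the range on the same side. All 30 of the largest differences kept their sign, 28 were called and 25 lay outside the range. Etnppl read 5.75, 6.40 and 6.14 in C57 CBE mice against 3.72 to 4.63 in the other CBE mice. The 1786 calls became 1000, 907 and 1154 without C57 CBE 1, 2 and 3, and the 724 became 469 and 427 without C57 CBE 1 and C57 CBE 2.

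**Figure D5:**
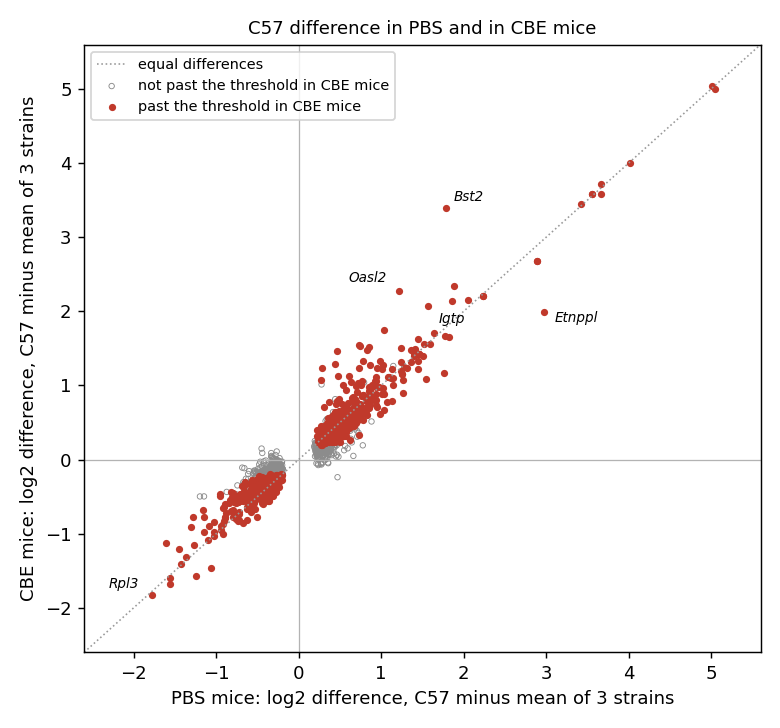
Log2 difference between C57 and the mean of the 3 other strains in PBS mice (x axis) and in CBE mice (y axis) for the 1346 probe sets called and outside the range in PBS mice, filled where also called in CBE mice, with a dotted line of equal differences. Most points lie along the line, and 1321 of 1346 keep their sign. Bst2 lies above it (1.79 in PBS mice and 3.39 in CBE mice) and Etnppl below (2.97 and 2.0).

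A test of whether the strain difference itself changed with CBE called 2 probe sets of 23521 (0.00850%), and 1261 (5.36%) had an unadjusted p under 0.05. Rsad2, or viperin, an antiviral radical-SAM enzyme, was not called in PBS mice: 4.55, 4.51 and 4.74 in C57 against 4.34 to 4.66. In CBE mice it read 5.77, 5.97 and 6.15 against 4.70 to 5.32, and the difference grew by 0.87 (SE 0.11, adjusted p = 0.00352). Cxcl10, a chemokine that attracts T cells, read 3.83, 3.73 and 4.05 in C57 PBS mice against 3.55 to 3.77, and 5.95, 6.39 and 7.15 in C57 CBE mice against 4.15 to 5.38 (growth of the difference 1.59, SE 0.26, adjusted p = 0.0468). The PBS differences were 0.13 and 0.22, and the CBE differences 1.00 and 1.81. In PBS mice every Cxcl10 value lay below the median of 4.18 over all probe sets, and Rsad2 was little above it. Signals this dim can hide a difference between strains. Of the 34 interferon-stimulated probe sets, 26 were called higher in CBE mice and none lower, with a median of 0.78 beside 0.21 in PBS mice. The 26 became 14 without C57 CBE 3.

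C3H CBE 1 stood apart from its group in these genes, for example at Bst2, where it read 6.15 and the other C3H CBE mice 4.63 and 4.26. Without it the interaction called 21 probe sets, Bst2 (1.80), Ifi30 (1.26) and Gpnmb (1.12) among them. Most other single arrays left 1 call when taken out, while the count was 4 without C57 PBS 3 and 9 without C57 CBE 1.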

How the data were processed

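Cortical RNA of 24 mice was labelled with the GeneChip WT PLUS kit (Affymetrix), per the labels. The deposited values are log2 signals, 1 per probe set and array. Per the submitters' processing notes the authors used Partek and RMA; the versions and the genome build were not given in the sources used here. Only the value table was read, not the scanner output. The members, gene lists, tests and naming rule were chosen with earlier results of these data known. limma 3.58.1 in R 4.3.3 fitted 1 mean per group to the 12 PBS arrays (residual df 8, prior df 5.01), separately to the 12 CBE arrays, and to all 24 for the interaction; p-values were adjusted by Benjamini-Hochberg over 23521 probe sets. Dim probe sets were kept, and 88 of the 1346 lay below the median level. Symbols came from the platform annotation (1814 probe sets had several and 15699 none). Named were the 15 largest differences each way, up to 4 members per list (or 2 where none passed), genes listed by name and interaction calls; predicted genes and small RNAs were only counted. The microRNA region, the neighbour runs and further list members were chosen after their values were seen. Deviations of same-numbered arrays from their group means had correlations from -0.18 to 0.17. These cannot show whether same-numbered mice were paired, and the main fits did not pair them. The number of arrays limits precision. Alternatives were other fits, scalings, adjustments, filters and leaving out each array. The procedure was tested on simulated data.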

Additional observations from a re-analysis of the deposited data

Results flagged for a closer look

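The C57 difference was larger in CBE than in PBS mice at Rsad2, by 0.87, and at Cxcl10, by 1.59, by limma's test of the difference itself. Both were dim in PBS mice, where a difference can be hidden. With the replicate number as a block, the adjusted p by limma was 0.000186 for Rsad2 and 0.0833 for Cxcl10, so that 1 of the 2 calls was left.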

How the results depend on the processing

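All 124 named probe sets called in PBS mice kept their direction in 22 alternatives, and 60 kept their call in every one; 15 lost it only with the 9 other arrays as 1 group. No called value changed sign, but values near 0 did (a Rpl3 probe set from -0.14 to 0.11, a Cacng2 one from -0.03 to 0.07), and median centring turned the balance of calls. With the 9 as 1 group, 1288 probe sets were called, 540 lower, with 2 complement, 1 lower lysosomal and 1 higher and 1 lower protocadherin probe sets. The ordinary linear model called 727 higher, with 2 GTPases, 2 higher and 0 lower microglial, 1 immediate-early and 1 higher and 3 lower protocadherin probe sets. All 24 arrays in 1 fit gave 2 GTPases, 2 complement, 2 microglial and 1 lower lysosomal call. Adjustment over the whole table gave 2, 3 and 1 for GTPases, immediate-early and lower lysosomal genes. Median centring gave 1243 lower against SV129. With the replicate number as a block, PBS calls were 1874 and interaction calls 1. Causes were not tested.

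Leaving out 1 array gave these ranges: 1021 to 2105 calls, 582 to 1118 higher, 384 to 987 lower, 896 to 1473 called and outside the range; 2 to 4 GTPases; 2 to 4 higher and 0 to 1 lower microglial; 6 to 12 higher and 1 to 3 lower lysosomal; 1 to 10 immediate-early; 0 to 4 higher and 3 to 6 lower protocadherin probe sets. Against SV129 the ranges were 852 to 1446, 422 to 646 higher and 394 to 819 lower; against FVB 846 to 1793, 569 to 1168 and 277 to 634; against C3H 760 to 1622, 424 to 871 and 316 to 751. In CBE mice they were 907 to 1966, 598 to 1228 and 309 to 738, and for the interaction 1 to 21, all higher. Dim probe sets can hide a difference, and 3 arrays a group limit precision.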
